A study of Homo sapiens with 12 samples.

Results

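Of the 54613 probe sets tested on a whole-genome expression array, 11721 carried no gene symbol in the platform annotation used, and 2035 of these had a mean level of at least 5.5 over all 12 arrays (log2 scale of the deposited values). Those 2035 brighter probe sets without a symbol are described here. They made up 3.73% of all probe sets tested, 17.4% of those without a symbol, and 8.29% of the 24540 probe sets at that level. They were chosen by their annotation and selected on 1 measured value, the mean over all arrays; the differences between groups were not used. At the edge of the rule, 241686_x_at (mean 5.5006) and 227965_at (5.5007) lay just inside, and 1553832_at (5.4998) and 242874_at (5.4997) just outside. A missing symbol means that the annotation, dated years after the array was designed, linked no gene to the probe set, not that no transcript is read by it.

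The cells were Ishikawa, an established endometrial cancer line, and the labels name 4 treatments with 3 biological replicates each. Every culture was first transfected, with a GPR54-directed or a negative control siRNA, for 48 h. Each was then exposed for 24 h to a peptide, which was metastin-10 at 10 µM or a control peptide. Metastin-10 is a short active fragment of the KISS1 product, and GPR54, encoded by KISS1R, is its receptor. The study asked which transcripts respond to metastin-10 and whether the receptor mediates the response. Both peptides were therefore given under both siRNAs, and the group that received the control siRNA and the control peptide is called the double control below. No untransfected culture was analysed here, so all groups share the transfection and a peptide.

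A probe set is a group of short probes designed against the 3 prime end of one transcript or expressed sequence tag. Many were designed on tags that no gene model later claimed, and such tags can come from introns, extended 3 prime ends, non-coding transcripts or repeats. Alu elements are short repeats of primate genomes that lie in introns and in untranslated ends of many transcripts, and 1 control probe set of this array reads them. The suffix of an identifier records the design: _at for probes unique to their target, _s_at for probes shared by several transcripts, _a_at for probes shared by transcripts of the same gene, and _x_at for sets in which some probes also match other sequences.

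The mRNA of KISS1R showed no fall with the siRNA label. The mean of its probe set was 9.28 ± 0.13 (log2, SD over 3 arrays) in the double control. In the arrays labelled GPR54 siRNA the mean was 9.42 ± 0.05 for control peptide and 9.43 ± 0.16 for metastin-10, and it was 8.40 ± 0.04 for metastin-10 under control siRNA. The 3 arrays of that last group lay below the other 9. The groups keep their labels below, and a direction drawn between siRNAs is between labels. The 7 epithelial markers averaged from 7.81 (MUC1) to 13.99 (KRT18), while the 4 leukocyte markers measured reached at most 5.2 (CD3E). The 6 stromal fibroblast markers ran from 2.56 (LUM) to 9.84 (COL1A1), so COL1A1 lay above MUC1. Endothelial markers reached 6.97 (VWF) and smooth muscle markers 6.04 (ACTA2). In every group the replicate 3 array had the lowest Alu control level. It lay close to replicate 1 with GPR54 siRNA and control peptide. Replicate 3 also had the smallest 3 prime minus 5 prime difference of the beta-actin control in every group, as given below. The probe values of the members correlated between arrays at 0.978 to 0.998, and no array was a copy of another (smallest SD of a difference 0.122).

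The members were dim. Their mean levels ran from 5.5 to 14.5 with a median of 6.58, against a median of 7.69 for the 21466 probe sets with 1 gene symbol at 5.5 or above. Of the members, 976 (48.0%) lay under 6.5, and 175 lay at 10 or above. The median residual SD between replicates was 0.143 among members and 0.126 among the named probe sets (log2), pools that differ in level. In the same order it was 0.159 and 0.160 at levels from 5.5 to 6, and 0.157 and 0.153 from 6 to 6.5. From 7 to 7.5 it was 0.151 and 0.137. Where a share of named probe sets is given as weighted below, it is weighted to the members' levels in steps of 0.5.

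By design the members were 1298 _at (63.8%), 419 _s_at (20.6%), 283 _x_at (13.9%) and 33 _a_at probe sets, with 2 of other kinds. The named probe sets at that level were 56.3% _at, 32.4% _s_at and 9.21% _x_at. Members also lay less in the oldest block of identifiers: 845 (41.5%) had a number of at most 222999, against 59.9% of the named ones. A further 970 (47.7%) lay above that and at most at 244891, a block that held 33.6% of the named ones. The 5 brightest members were all _x_at sets. The brightest, 221798_x_at, read between 14.43 and 14.52 on every array, and 206559_x_at, 211720_x_at, 201033_x_at and 208856_x_at averaged 14.34, 14.23, 14.22 and 14.20. None of these 5 was called in any contrast by limma.

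The contrasts were tested with limma over all 12 arrays and all 54613 probe sets, and a probe set is called here where its Benjamini-Hochberg adjusted p was under 0.05. With metastin-10 under control siRNA, 20 members were called, all lower (0.983%, against a background of 0.428% of all probe sets in either direction and 0.386% lower). Of the named probe sets at the members' level, 0.699% were called, or 0.640% when weighted to the members' levels. Under the GPR54 siRNA label, metastin-10 gave 0 calls among members and over all probe sets (background 0%). There, 15 members had an unadjusted p under 0.05 (0.737%, against 2.21% of all probe sets), and limma with a replicate block or array weights called 0 as well. Between the siRNA labels with control peptide, 6 members were called, all lower (0.295%, background 0.0531%). Between the siRNA labels with metastin-10, 17 were called, 16 higher and 1 lower (0.835%, background 0.579%, or 0.527% higher and 0.0513% lower). The interaction, the metastin-10 effect in the arrays labelled GPR54 siRNA minus that under control siRNA, called 1 member (0.0491%, background 0.0513%).

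The comparison of siRNA labels with control peptide held few calls among named probe sets. It called 29 probe sets in all, of which 6 were members, 18 were dimmer probe sets without a symbol, 4 had 1 gene and 1 had several. Only 2 of the 21466 named probe sets at the members' level were called, a weighted share of 0.0175%. For the siRNA labels with metastin-10, the 0.835% of members called stood beside a weighted named share of 1.11%. These shares are descriptions, since the members were chosen with earlier results known and no test was run on the set. The double control arrays serve both the metastin-10 contrast under control siRNA and the siRNA contrast with control peptide, so the calls of these contrasts are not independent.

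The counts moved with single arrays. Under control siRNA the 20 metastin-10 calls fell to between 5 and 11 when any 1 of the 6 control siRNA arrays was left out. They fell to 12 and 13 without replicate 2 or 3 of GPR54 siRNA with control peptide, and lay between 14 and 21 without any other array. The 6 siRNA calls with control peptide fell to 0 without replicate 2 of the double control, or without replicate 2 or 3 of GPR54 siRNA with control peptide. They fell to 1 without replicate 1 of the double control, and to 3 without replicate 3 of that group or replicate 1 of GPR54 siRNA with control peptide. The same-numbered arrays of these groups deviated together, and with the replicate number as a block the 6 calls became 10. The 17 calls with metastin-10 fell to 7 and 6 without replicate 1 or 2 of GPR54 siRNA with metastin-10, and to 6 and 9 without replicate 1 or 2 of control siRNA with metastin-10. They lay between 12 and 17 without any other array.

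Together, 30 members were called in at least 1 contrast, and 28 of them had 1 of 2 profiles. In 12, the 3 double control arrays lay above all 9 other arrays. In 16, the 3 control siRNA, metastin-10 arrays lay below all 9 others. The 20 metastin-10 calls under control siRNA were 10 of the first profile, 9 of the second and 241816_at. The 6 siRNA calls with control peptide all had the first profile, and 16 of the 17 with metastin-10 had the second. In the other, 234675_x_at, the control siRNA, metastin-10 arrays lay above the other 9.

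**Figure D1:**
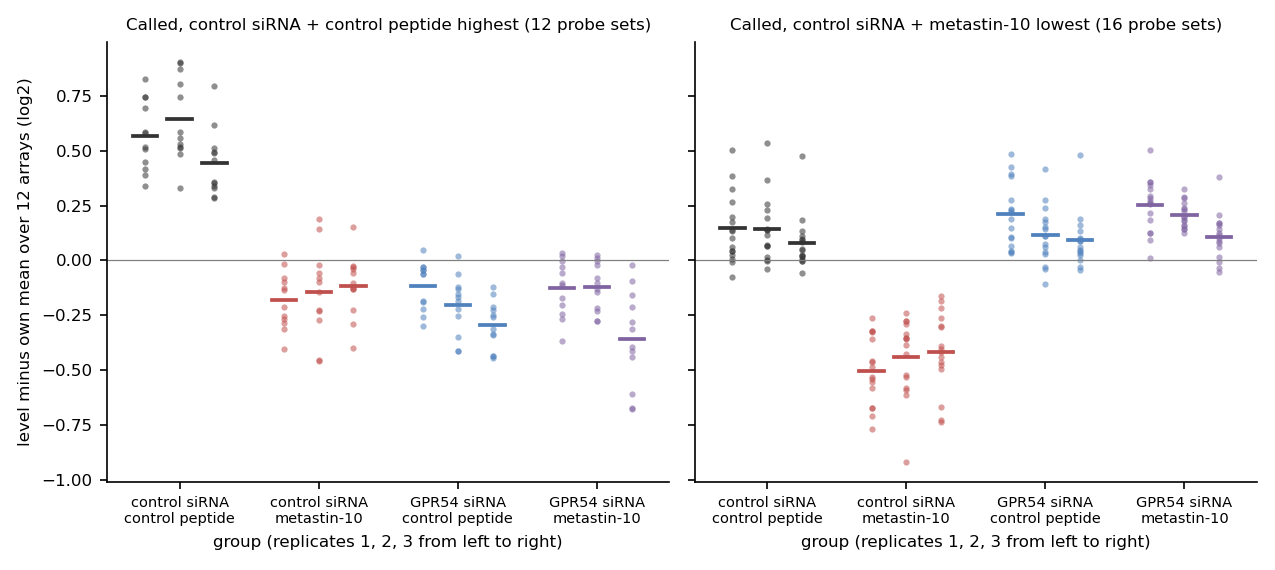
Deviation of each called member from its own mean over the 12 arrays (log2), by array, for the 12 members highest with control siRNA and control peptide (left) and the 16 lowest with control siRNA and metastin-10 (right). Points are probe sets, bars are means over the probe sets of an array, and in each panel 1 group of 3 arrays stands away from the other 9, by the choice of these members.

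The member with the largest siRNA difference among the calls with control peptide was 232889_at. It read 6.66, 6.72 and 6.71 in the double control, 5.63, 5.86 and 5.86 with control siRNA and metastin-10, 5.73, 5.66 and 5.48 with GPR54 siRNA and control peptide, and 5.65, 5.77 and 5.24 with GPR54 siRNA and metastin-10. The double control was high and the other 3 groups overlapped each other. In bulk RNA, fewer cells with a transcript and less of it per cell cannot be told apart. The siRNA difference with control peptide was -1.07 ± 0.13 (log2, SE), 2.10-fold lower (limma adjusted p = 0.00889). The metastin-10 difference under control siRNA was -0.91 ± 0.13 (adjusted p = 0.00705). This metastin-10 call held in all 20 alternative settings, and the siRNA call in 14 of 20 (adjusted p from 0.00109 to 0.0693).

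The same shape appeared in 232991_at, which read 6.19, 6.36 and 6.39 in the double control. Its other 9 arrays lay between 5.5 and 5.73, so the double control did not overlap any other group. Its siRNA difference with control peptide was -0.68 ± 0.08 (limma adjusted p = 0.00972), and its metastin-10 difference under control siRNA -0.70 ± 0.08 (adjusted p = 0.00308). The brightest called member of this profile, 242406_at, read 7.82, 7.94 and 7.77 in the double control and 7.15 to 7.41 in the other 9 arrays. Its siRNA difference was -0.61 ± 0.09 (adjusted p = 0.0310) and its metastin-10 difference -0.49 ± 0.09 (adjusted p = 0.0308), and the siRNA call held in only 6 of 20 settings.

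Further siRNA calls were 243768_at, 244197_x_at and 235138_at. In 243768_at the double control read 6.70, 6.60 and 6.40, and the siRNA difference was -0.80 ± 0.11 (limma adjusted p = 0.0166). In 244197_x_at it read 6.93, 6.81 and 6.81, and the difference was -0.63 ± 0.09 (adjusted p = 0.0226). In 243768_at and 244197_x_at the metastin-10 arrays under control siRNA lay between the double control and the GPR54 siRNA arrays without metastin-10, and neither was called with metastin-10. In 235138_at it read 6.58, 6.71 and 6.35, with siRNA and metastin-10 differences of -0.95 ± 0.15 (adjusted p = 0.0481) and -0.92 ± 0.15 (adjusted p = 0.0177).

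The other 6 members of this profile were called with metastin-10 under control siRNA but not between siRNA labels. They were 233300_at (-0.97), 242846_at (-0.86), 213605_s_at (-0.77), 213089_at (-0.77), 242172_at (-0.65) and 235123_at (-0.63). Their siRNA differences with control peptide were -1.0, -0.70, -0.76, -0.68, -0.63 and -0.55, with adjusted p from 0.0583 (242172_at) to 0.28 (242846_at) by limma. In 233300_at the double control read 6.56, 6.63 and 6.22, and the other arrays lay between 5.06 and 5.75. Outside the double control 233300_at and 242846_at averaged under 5.5, so they were members only through the group in which they were high. A difference that missed the threshold between siRNA labels does not show that these probe sets behave otherwise than the 6 called there.

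The second profile was led by 231007_at. It read 6.24, 6.27 and 6.21 in the double control, 4.97, 4.82 and 5.07 with control siRNA and metastin-10, 6.22, 5.63 and 5.74 with GPR54 siRNA and control peptide, and 5.86, 6.02 and 5.80 with GPR54 siRNA and metastin-10. Only the control siRNA, metastin-10 arrays were low, and the other 3 groups lay at least 0.5 above them. The metastin-10 difference under control siRNA was -1.29 ± 0.13 (limma adjusted p = 0.00136), and with metastin-10 the GPR54 siRNA label was higher by 0.94 ± 0.13 (adjusted p = 0.00618). Both calls held in all 20 alternative settings. It was the 1 member called in the interaction, at 1.31 ± 0.19 (adjusted p = 0.0332), which held in 8 of 19 settings. The interaction count was 0 on leaving out any 1 array except replicate 3 of control siRNA with metastin-10 (1), replicate 1 of GPR54 siRNA with control peptide (1) and replicate 3 of GPR54 siRNA with metastin-10 (2), and it was 3 with the replicate block.

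Several brighter members shared this profile with a tighter spread. In 203296_s_at the control siRNA arrays read 8.74, 8.67 and 8.60 with control peptide and 7.86, 7.99 and 7.94 with metastin-10, and the 6 arrays labelled GPR54 siRNA lay between 8.36 and 8.69. The metastin-10 difference was -0.74 ± 0.09 (limma adjusted p = 0.00394) and held in all 20 settings. In 213397_x_at the metastin-10 arrays under control siRNA read 6.26, 6.40 and 6.47, and every other array lay between 7.01 and 7.20, a difference of -0.71 ± 0.09 (adjusted p = 0.00308).

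In the presence of metastin-10, 213397_x_at was higher with GPR54 siRNA by 0.75 ± 0.09 (limma adjusted p = 0.00131) and 228843_at by 0.82 ± 0.11 (adjusted p = 0.00412). In 228843_at the control siRNA, metastin-10 arrays read 6.93, 6.93 and 7.02 and the other 9 lay between 7.51 and 7.94. The brightest called member, 215313_x_at, read 11.04, 11.09 and 11.07 in that group and 11.38 to 11.54 elsewhere. Its siRNA difference was 0.42 ± 0.08 (adjusted p = 0.0321), held in 8 of 20 settings. The remaining members of this profile were 213183_s_at (0.83), 236180_at (0.82), 230746_s_at (0.69), 213004_at (0.68), 225656_at (0.62), 219833_s_at (0.61), 203296_s_at (0.57), 213001_at (0.56), 235857_at (0.56), 203423_at (0.48), 201623_s_at (0.46) and 1558345_a_at (0.45), each given with its siRNA difference in the presence of metastin-10.

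The 2 called members outside both profiles were 234675_x_at and 241816_at. The control siRNA, metastin-10 arrays of 234675_x_at read 7.93, 8.07 and 8.01, and the other 9 lay between 7.26 and 7.68. Its siRNA difference in the presence of metastin-10 was -0.53 ± 0.10 (limma adjusted p = 0.0379). In 241816_at the control siRNA arrays read 5.69, 5.84 and 6.02 with control peptide and 5.07, 5.08 and 5.32 with metastin-10. Its metastin-10 difference of -0.69 ± 0.13 (adjusted p = 0.0477) was not called with the replicate block.

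Metastin-10 under the GPR54 siRNA label left the members within a narrow range. Their differences ran from -0.33 to 0.40, and the 5 smallest unadjusted p belonged to 233626_at (0.40), 235437_at (0.34), 207919_at (0.39), 235679_at (-0.32) and 235861_at (0.36). None of these passed the adjustment in limma (adjusted p of 1.0). In 233626_at the arrays labelled GPR54 siRNA read 5.2, 5.46 and 5.34 with control peptide and 5.68, 5.65 and 5.87 with metastin-10, without overlap. For a member's difference the 95% interval extended by a median of 0.249 to each side.

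Counted by group rather than by call, and by a rule chosen after the values were seen, 42 members (2.06%) had all 3 double control arrays above the other 9. The background over all probe sets was 0.932%. Among named probe sets at the members' level 133 had it (0.620%), or 0.699% weighted to the members' levels, and among the dimmer probe sets without a symbol 200 did (2.06%). For the control siRNA, metastin-10 arrays below the other 9 there were 72 members (3.54%), 1390 named probe sets (6.48%, weighted 5.65%) and 35 of the dimmer probe sets without a symbol (0.361%), beside a background of 3.18%. There the members' share was under the named one and near the background. Of the other 6 possible patterns, the most frequent among members was control siRNA with metastin-10 above (21 members, 1.03%, weighted named share 1.27%, background 1.33%). The double control lay below the others in 9 members (0.442%, background 0.579%). The 2 groups labelled GPR54 siRNA stood apart in 8 members in all, 3 above and 4 below with control peptide (backgrounds 0.198% and 0.276%) and 1 above and 0 below with metastin-10 (backgrounds 0.287% and 0.251%).

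**Figure D2:**
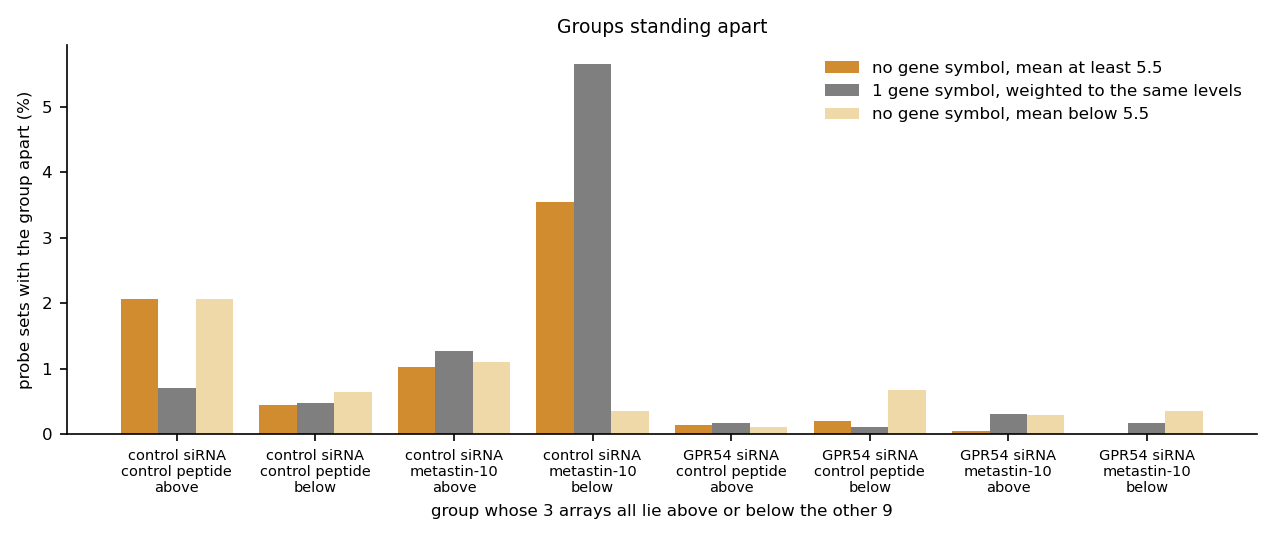
Percent of probe sets (vertical axis) in which the 3 arrays of a group all lie above or all below the other 9 (horizontal axis), for the members, for named probe sets weighted to the members' levels and for dimmer probe sets without a symbol. Control siRNA with control peptide lay above in 2.06% of members against 0.699% of the weighted named sets, and control siRNA with metastin-10 lay below in 3.54% against 5.65%.

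The 42 and the 72 differed in level and design. The 42 had a median level of 6.05, with 29 _at, 10 _x_at and 3 _s_at sets, and the 72 had a median level of 7.65. The share with the first profile was 2.23% of _at members, 3.53% of _x_at members and 0.716% of _s_at members. The same shares of named probe sets were 0.704%, 0.759% and 0.461%. The second profile took 3.24% of _at, 1.77% of _x_at and 5.01% of _s_at members, and 6.59%, 5.52% and 6.80% of the named ones in the same order.

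Within the 42, the median difference was -0.52 between siRNA labels with control peptide and -0.39 with metastin-10 under control siRNA, sizes that the choice of the profile helps to set. The medians of the group means were 6.54 in the double control, 5.92 with control siRNA and metastin-10, 5.81 with GPR54 siRNA and control peptide, and 5.92 with GPR54 siRNA and metastin-10. Of the 42, 6 (14.3%) averaged under 5.5 over the other 9 arrays and were members only through the group in which they were high. Of the 133 named probe sets with this profile, 5 (3.76%) averaged under 5.5 over the other 9 arrays. The shares of the profile given above include these probe sets. None of the 6 siRNA calls with control peptide was of that kind. Of the metastin-10 calls under control siRNA, 233300_at, 242846_at and 241816_at were members only through the double control. They averaged under 5.5 over the other 9 arrays, and the share of members called in that contrast includes them. Leaving out an array can only keep or raise the count of 42, since fewer arrays must then meet the rule. Replicate 3 of the double control limited the count most: without it 146 members had this profile, and without any other array 43 to 56. For the second profile, 211 had it without replicate 3 of control siRNA with metastin-10, and 72 to 103 without any other array.

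The median member lay close to the named probe sets of its level. After subtracting the median of the named probe sets in the same 0.5-wide step of level, the median member difference was -0.00013 for metastin-10 under control siRNA and 0.0067 in the arrays labelled GPR54 siRNA. It was -0.021 for the siRNA labels with control peptide, -0.028 with metastin-10 and -0.0042 for the interaction. The siRNA medians kept their sign on leaving out each array in turn, from -0.027 to -0.013 with control peptide and from -0.045 to -0.017 with metastin-10. No test was run on them.

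The difference lay in the lower tail. Between siRNA labels with control peptide, 30 members (1.47%) were lower by 0.5 or more on the log2 scale and 0 were higher by as much. The background was 0.483% for a fall of that size and 0.0146% for a rise. Of named probe sets at the members' level 22 were as low (0.102%, weighted 0.183%), and of dimmer probe sets without a symbol 140 (1.45%). The 1st percentile of the difference was -0.578 among members and -0.277 among the named probe sets. For metastin-10 under control siRNA the same count was 38 members (1.87%), against a background of 0.903% and a weighted named share of 1.13%. In the upper tail of the siRNA contrast with metastin-10, 17 members (0.835%) were higher by 0.5 or more, beside a background of 0.743% and a weighted named share of 1.45%.

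**Figure D3:**
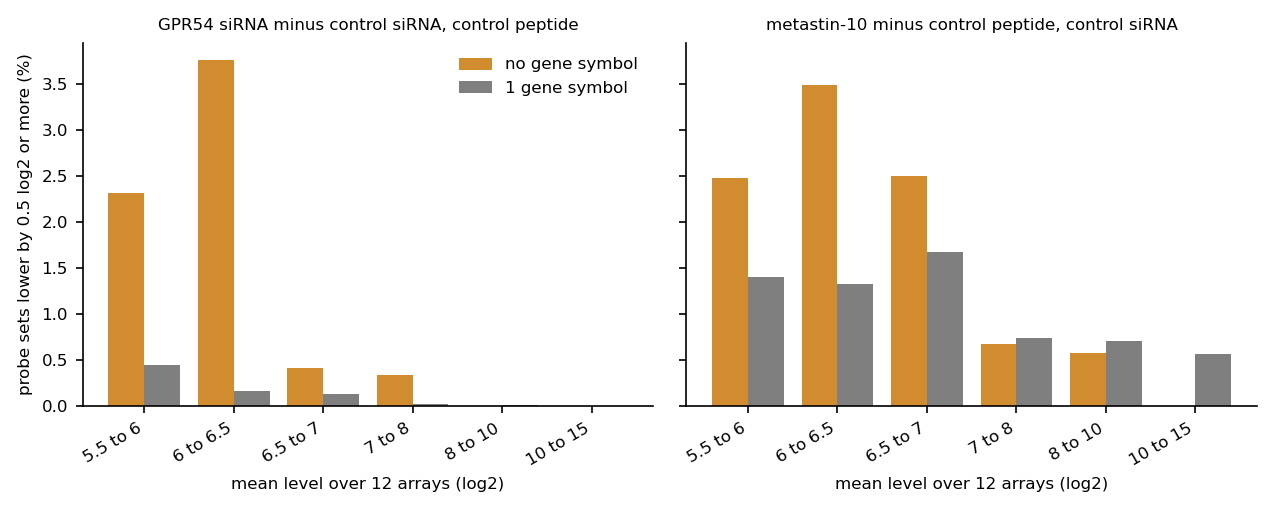
Percent of probe sets (vertical axis) lower by 0.5 or more on the log2 scale, in classes of mean level over the 12 arrays (horizontal axis), for members and for probe sets with 1 gene symbol. In the siRNA contrast with control peptide (left) 28 of the 30 members lie below a level of 6.5, where the named share is at most 0.446%, and the metastin-10 contrast under control siRNA is at right.

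The tail belonged to dim members. Of the 30 members low between siRNA labels with control peptide, 14 had a mean level from 5.5 to 6 (2.32% of 604) and 14 from 6 to 6.5 (3.76% of 372). The named shares in these classes were 0.446% and 0.160%. From 6.5 to 7 and from 7 to 8 there was 1 member each, and there was 0 of 348 from 8 to 10 and 0 of 175 above. The 30 lay between levels 5.52 and 7.43, and 23 of them were among the 42 with the first profile. Of the 30, 5 averaged under 5.5 over the other 9 arrays, as did 5 of the 22 named ones.

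The human Alu control probe set had its highest mean in the double control, at 14.13 ± 0.08 (log2, SD, n = 3), and its lowest with GPR54 siRNA and control peptide, at 13.94 ± 0.06. It read 14.20, 14.16 and 14.04 in the double control, 14.09, 14.10 and 13.95 with control siRNA and metastin-10, 13.92, 14.01 and 13.90 with GPR54 siRNA and control peptide, and 13.98, 14.05 and 13.94 with GPR54 siRNA and metastin-10. With control peptide the 2 siRNA groups did not overlap, while the remaining pairs did. The siRNA difference with control peptide was -0.19 on the log2 scale, 1.14-fold (two-sided exact permutation p = 0.10, the smallest that 3 against 3 arrays allow). The differences were -0.09 for metastin-10 under control siRNA, 0.05 in the arrays labelled GPR54 siRNA and -0.06 between siRNA labels with metastin-10, each with an exact permutation p of 0.30. The interaction was 0.14 (exact permutation p = 0.12). Over both peptides, 6 against 6 arrays, the siRNA difference was -0.13 (exact permutation p = 0.0173). This pooled comparison was added to those of 3 against 3 arrays and averages differences of -0.19 and -0.06. Its permutation took no account of peptide or replicate number. After Benjamini-Hochberg adjustment over these 6 comparisons, the permutation p-values were 0.104 over both peptides, 0.24 for the siRNA labels with control peptide and for the interaction, and 0.30 for the rest. Between same-numbered arrays the sign was the same in 3 of 3 pairs for each of the 5 contrasts, with metastin-10 differences of 0.045 to 0.065 under the GPR54 siRNA label and -0.11 to -0.058 under control siRNA. The siRNA difference was below 0 in 6 of 6 pairs. An exact sign-flip test of 3 pairs (added after the values were seen) gave p = 0.25 in each contrast, the smallest it can give. The replicate 3 array was the lowest of its group in all 4 groups.

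Over the 12 arrays the correlation with the Alu level had a median of 0.084 among members and -0.047 among named probe sets. These correlations are descriptions over arrays that share groups and replicate numbers. At r of 0.8 or more there were 43 members (2.11%), against 143 named probe sets (0.666%, weighted 0.531%). The share was 0.681% of the dimmer probe sets without a symbol and 0.551% of all probe sets. At -0.8 or less there were 11 members (0.541%), against 1.15% of the named ones (weighted 0.765%) and 0.566% of all probe sets. Of the 43, 29 (67.4%) were _x_at sets, which made up 13.9% of members. By design, 10.2% of _x_at members reached 0.8, against 1.0% of _at members, 0.239% of _s_at members and 3.04% of named _x_at sets.

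**Figure D4:**
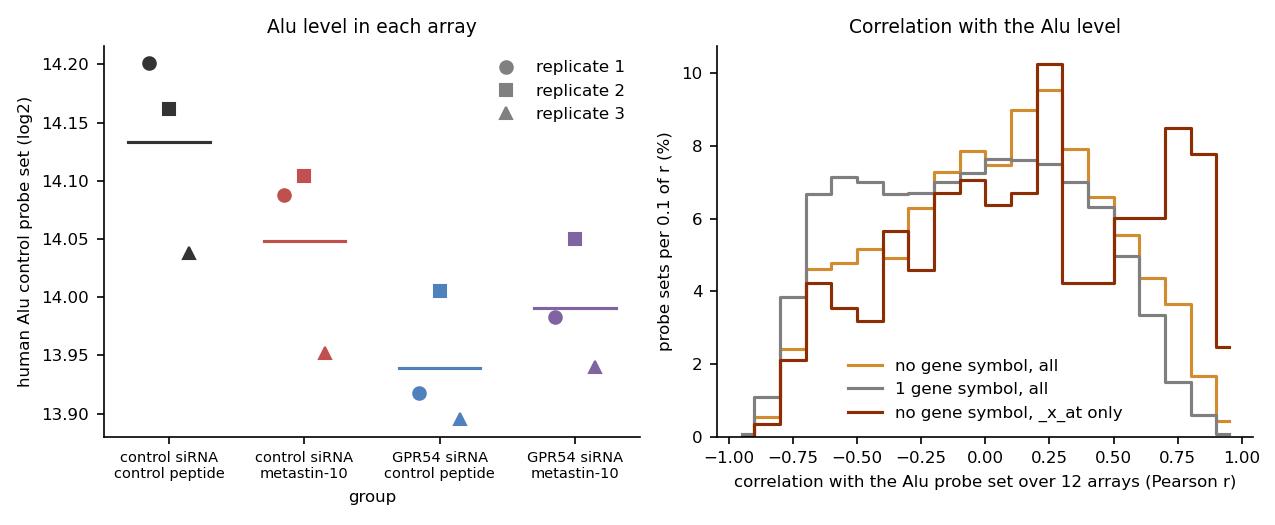
Left, level of the human Alu control probe set (log2) in each of the 12 arrays by group, with group means as lines and the replicate number as the marker; the vertical axis does not start at 0. Right, percent of probe sets per 0.1 of the Pearson correlation with that level over the 12 arrays, where 10.2% of the _x_at members reach 0.8 against 2.11% of all members and 0.666% of named probe sets.

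The 5 members that followed the Alu level most closely were 208246_x_at (r = 0.956), 241303_x_at (0.945), 216187_x_at (0.941), 217679_x_at (0.930) and 221176_x_at (0.920), all _x_at sets and all named after their values were seen. In 208246_x_at the arrays read 8.65, 8.44 and 8.11 in the double control, 8.42, 8.27 and 7.95 with control siRNA and metastin-10, 7.90, 8.23 and 7.85 with GPR54 siRNA and control peptide, and 8.04, 8.20 and 8.04 with GPR54 siRNA and metastin-10. Its groups overlapped, and replicate 3 was the lowest array in 3 of the 4. Its siRNA difference with control peptide was -0.40 (limma adjusted p = 1.0).

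Of the 43 members at r of 0.8 or more, 6 were among the 42 with the first profile. They were 14.3% of the 42, beside 2.11% of all members, and the profile itself helps to set the correlation. For the siRNA labels with control peptide all 43 were below 0, with a median of -0.34. The choice of the 43 helps to set this sign, since the Alu level itself differed by -0.19 there. Of the 43, 1 was called by limma in that contrast, 244197_x_at (r = 0.816). Among the 42 the median correlation with the Alu level was 0.694, and among the 72 of the second profile it was -0.198. After subtracting group means from both levels, the median correlation was 0.303 among the 42, above 0 in 31 of them (73.8%). It was 0.134 among all members, above 0 in 59.3%, and 0.016 among the 72, above 0 in 38.

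With the Alu level of each array as a covariate in limma, the metastin-10 calls under control siRNA went from 20 to 12, of which 10 were among the 20. Of those with the first profile, 4 of 10 stayed called, and their median difference went from -0.77 to -0.75. With the siRNA labels compared under control peptide, 5 members were called, of which 1 was among the 6, and the median difference of the 6 went from -0.74 to -0.68. For the 30 members low by 0.5 or more it went from -0.64 to -0.49. Of the 16 calls of the second profile between siRNA labels with metastin-10, 14 stayed called, with a median of 0.61 without and 0.63 with the covariate. The Alu level differs between the groups, so a part it shares with the groups cannot be told apart from them. In replicate 3, where the Alu level was lowest, 29 of the 42 (69.0%) also had their lowest value within the double control, against 45.2% of all members.

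Gene lists, 4 in all, were set beside the members, with each gene read by its brightest probe set. The list called nuclear long non-coding RNAs, or nuclear RNAs, holds long non-coding RNAs whose place in the cell was not measured here and need not be the nucleus. Splicing and nuclear speckle proteins act on unspliced RNA, decay and export factors remove or move nuclear RNA, and ribosomal proteins are a set of abundant, short messages. In the siRNA contrast with control peptide, limma called 0 of 15 nuclear RNAs (2 at an unadjusted p under 0.05), 0 of 32 splicing proteins (0), 0 of 21 decay and export factors (0) and 0 of 16 ribosomal proteins (0). The medians were 0.013, -0.0084, 0.018 and 0.0027, beside 0.013 over all probe sets tested. With metastin-10 under control siRNA, 0 of each list were called too (5, 2, 0 and 0 at an unadjusted p under 0.05). With array weights, limma called 1 nuclear RNA in each of these contrasts, and with the replicate block 1 in the metastin-10 contrast.

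In the other contrasts, limma again called 0 of each list. For the siRNA labels with metastin-10, 5 nuclear RNAs and 3 splicing proteins had an unadjusted p under 0.05, array weights called 3 and 1, and the replicate block 1 and 0. For metastin-10 under the GPR54 siRNA label 1 nuclear RNA had such a p, and for the interaction 3 nuclear RNAs and 1 splicing protein did. None of the genes with the smallest p passed the adjustment by its brightest probe set.

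In the nuclear RNA list the smallest p belonged to FTX, an RNA of the X-inactivation region, in 3 contrasts. It stood at -1.21 between siRNA labels with control peptide (limma adjusted p = 0.161), -1.14 with metastin-10 under control siRNA (adjusted p = 0.0837) and 1.19 in the interaction (adjusted p = 0.493). This brightest FTX probe set had a mean level of 4.81, under 5.5. The other FTX probe set, 1558515_at at a mean level of 3.61, was called lower with metastin-10 under control siRNA (-0.53, limma adjusted p = 0.0197). Between siRNA labels with metastin-10 the smallest p belonged to EPB41L4A-AS1 at 0.39 (adjusted p = 0.0735), and for metastin-10 under the GPR54 siRNA label to GAS5, a host of small nucleolar RNAs, at -0.29 (adjusted p = 1.0). For the splicing list it was CLK1, a kinase of splicing factors, at -0.14 between siRNA labels with control peptide (adjusted p = 1.0). CLK3, of the same family, stood at -0.26 with metastin-10 under control siRNA (adjusted p = 0.291), 0.34 between siRNA labels with metastin-10 (adjusted p = 0.133) and 0.28 in the interaction (adjusted p = 0.765). For the decay list, in the siRNA contrast with control peptide and the metastin-10 contrast under control siRNA, it was EXOSC5, a subunit of the RNA exosome, at 0.14 and 0.17 (adjusted p = 1.0 and 0.545). For the ribosomal list it was RPL11 at -0.05 and RPL3 at -0.06 there (adjusted p = 1.0 and 0.815).

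Some probe sets of the listed genes, chosen after their values were seen, had the first profile of the members. Over all probe sets of these genes, 6 of 65 for nuclear RNAs (9.23%) and 7 of 121 for splicing proteins (5.79%) had the double control arrays above the other 9, against 0 of 52 for decay factors and 0 of 29 for ribosomal proteins. The background was 0.932%. The 6 belonged to FTX and DLEU2, and 1 of them was the brightest probe set of its gene, that of FTX. None of the 7 was the brightest of its gene. In 1556821_x_at, 1 of 7 probe sets of the non-coding gene DLEU2, those 3 arrays read 6.72, 6.92 and 6.72 and the other 9 lay between 5.43 and 5.90. Its siRNA difference was -1.06 (limma adjusted p = 0.00534) and its metastin-10 difference -0.97 (adjusted p = 0.00308), while the brightest DLEU2 probe set differed by 0.013 between siRNA labels.

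Of the 7 splicing probe sets, 229574_at of TRA2A, a splicing regulator, read 6.26, 6.23 and 5.99 in the double control and 5.45, 5.33 and 4.69 with GPR54 siRNA and control peptide. These groups did not overlap, and the difference of -1.01 did not pass the threshold (limma adjusted p = 0.0560). The brightest TRA2A probe set, at a mean level of 9.89, differed by -0.06.

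RNA quality was read from the 3 prime minus 5 prime difference of beta-actin. It averaged 0.65 (log2) in the double control, 0.60 in the other control siRNA group, and 0.58 in each group labelled GPR54 siRNA. By replicate it averaged 0.77, 0.72 and 0.31. It lay between 0.29 and 0.36 in replicate 3, from 0.71 in replicate 1 and from 0.66 in replicate 2. The same difference of GAPDH was at most -0.066 in replicate 3, and at least -0.030 in replicate 1 and -0.0067 in replicate 2. The 5 prime probe sets of the poly-A spike controls averaged at least 8.46 in replicate 3, and at most 8.18 in replicate 1 and 7.83 in replicate 2. The part of these controls in the members' differences was not tested.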

How the data were processed

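The authors deposited a table of log2 expression values for 12 one-colour 3 prime arrays (Affymetrix HG-U133 Plus 2.0). Per the submitters' processing notes the method was RMA, with software and version not given in the sources used here. RMA gives all arrays 1 distribution, compresses dim probe sets and hides a shift common to most. Scanner files, probe sequences and detection calls were not used here, and the number of arrays limits the precision.

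Symbols came from the platform annotation, and 62 control probe sets were not tested. Limma 3.58.1 (R 4.3.3) fitted 4 group means with 8 residual degrees of freedom, and Benjamini-Hochberg adjustment ran over 54613 probe sets. The metastin-10 contrast under control siRNA was also simulated with 54613 probe sets. There limma called 92% of true log2 changes of 1 and 29% of those of 0.5, with 6 false calls among 127. The simulated noise was normal and independent between arrays and probe sets, without the deviations that same-numbered arrays share. These rates therefore need not hold for the real arrays. Weighted shares average the named probe sets over 0.5-wide steps of mean level in the members' proportions.

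Over all probe sets tested, deviations of same-numbered arrays correlated at 0.17 to 0.44 for metastin-10 under control siRNA and at 0.26 to 0.52 in the arrays labelled GPR54 siRNA. Between siRNA labels the correlations were 0.11 to 0.54 with control peptide and -0.15 to 0.26 with metastin-10. Among members they were higher, at 0.33 to 0.61, 0.49 to 0.71, 0.19 to 0.74 and -0.05 to 0.51 in the same order. The reported calls and adjusted p come from group means without a replicate term. A deviation shared by same-numbered arrays therefore stays in their spread. With the replicate block, fitted as an alternative, the 20, 6, 17 and 1 calls became 29, 10, 24 and 3, and 0 stayed 0.

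The members, lists and rules were chosen with earlier results of these data known. Named are the Alu probe set, KISS1R, up to 12 called members with groups that do not overlap in each direction and contrast (5 by smallest p where none), the 5 brightest, 2 on each side of 5.5, and per list the called genes or that with the smallest p. Any other was picked with its values in view. The labels call the replicates biological, and p-values measure the spread between them.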

Additional observations from a re-analysis of the deposited data

Results flagged for a closer look

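For 231007_at the effect of metastin-10 differed between the siRNA labels, by a test of the difference itself. The effect in the arrays labelled GPR54 siRNA minus that under control siRNA was 1.31 (log2, limma adjusted p = 0.0332). Metastin-10 gave -1.29 under control siRNA, with all 3 arrays between 4.82 and 5.07, below every other array. The level of KISS1R itself did not fall with the siRNA label, and KISS1R had the same profile. Its difference was -0.88 with metastin-10 under control siRNA (limma adjusted p = 0.00213). Between siRNA labels with metastin-10 it was 1.03 (limma adjusted p = 0.000391). The interaction of KISS1R was 0.89 (limma adjusted p = 0.04996) and held in 5 of 19 settings. The cause of these differences was not tested.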

How the results depend on the processing

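Counts of called members depended on the settings, and no named result reversed. Metastin-10 calls under control siRNA, 20 as reported, were 32 with array weights, 31 when only probe sets at 5.5 or above were tested, 12 with the Alu level as a covariate, 10 when only the 2 groups compared were fitted, 9 for members from a mean of 6.5, and 37 by a log2 difference of 0.5 without overlap in place of the test. Leaving out 1 array gave 5 to 21. Between siRNA labels with control peptide, 6 as reported, the counts in the same order were 19 with array weights, 1 with only the 2 groups, 1 from 6.5 and 28 by the fold rule. They were 10 with the replicate block, 10 from a mean of 5.0, 0 with replicates 1 and 2 only (added after seeing the data), and 0 to 8 on leaving out 1 array. Between siRNA labels with metastin-10, 17 became 73 with array weights, 29 when only brighter probe sets were tested and 2 with only the 2 groups, and 6 to 17 on leaving out 1 array. The interaction, 1 as reported, gave 3 with the replicate block, 17 with array weights, 2 with an intensity trend, 5 with only brighter probe sets, 0 with replicates 1 and 2 only, 0 from 6.5, and 0 to 2 on leaving out 1 array. With the replicate block, counts went from 20 to 29 and from 17 to 24 in the other contrasts, and metastin-10 in the arrays labelled GPR54 siRNA stayed at 0. The median member minus named difference between siRNA labels with metastin-10 was -0.014 from 6.5, and -0.045 to -0.017 on leaving out 1 array. The first profile held 10 members from 6.5, and 43 to 146 on leaving out 1 array. The second held 72 to 211 on leaving out 1 array, which can only keep or raise the count of a profile. The causes were not tested. Of 47 named results, 9 kept their call in every setting. The limits are the dimness of most members, the unknown background of the arrays and 3 arrays a group.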
